A study of Arabidopsis thaliana with 30 samples.

Results

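The miR165/miR166 module of Arabidopsis thaliana was followed as 9 genes: the precursor genes MIR165A (AT1G01183), MIR165B (AT4G00885), MIR166A (AT2G46685) and MIR166B (AT3G61897), and the HD-ZIP III genes PHABULOSA (PHB, AT2G34710), PHAVOLUTA (PHV, AT1G30490), ATHB-15 (AT1G52150), REVOLUTA (REV, AT5G60690) and ATHB-8 (AT4G32880). They were chosen by gene identifier, with earlier results of these data known. All 9 had a row among the 32832 genes counted in RNA-seq 2 and among the 34262 genes of RNA-seq 1. RNA-seq 2 held se-2 hen2-2 double mutants, se-2, hen2-2 and WT plants grown at 20 °C, and RNA-seq 1 held hen2-2 and WT plants grown at 22 °C. Each genotype had 3 libraries. All plants were Col-0, and by the study's methods every library was made from rosette leaves of plants 4 weeks old, labelled aerial tissue. Ribosomal RNA was removed first, and libraries were then made with a separate kit that keeps strand. The hen2-2 and se-2 alleles are T-DNA insertions in HEN2 and SERRATE (SE), and the double mutant was obtained by crossing. Whole leaves were sampled, so fewer cells of a type and less RNA per cell cannot be told apart. RNA-seq 2 was made because leaves of the double mutant look closer to WT than those of se-2, to ask how its transcripts differ.

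In plants, pri-miRNAs are cut in the nucleus by DICER-LIKE 1, with SE as a helper protein, into a duplex whose guide strand is loaded into an Argonaute. HEN2 is the RNA helicase of the nuclear exosome targeting (NEXT) complex, which hands nuclear transcripts to the exosome for degradation. miR165 and miR166 direct the cleavage of HD-ZIP III mRNAs on the lower side of the leaf. HD-ZIP III proteins are transcription factors that specify the upper side of the leaf, shoot meristem function and the vascular tissue.

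The mature miRNAs tie the precursors to the HD-ZIP III genes, so their sequences are given first, as read from the RefSeq annotation of TAIR10.1 with the seed (bases 2 to 8) in capitals. All 4 precursors share this seed, CGGACCA. The mature sequence is the same in MIR165A and MIR165B, and again in MIR166A and MIR166B. The miRNAs differ by 1 base, C17U, counted from the 5′ end with the miR165 base first.
miR165a-3p: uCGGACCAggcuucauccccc
miR166a-3p: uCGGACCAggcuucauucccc

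The site that best paired with miR166 in each spliced HD-ZIP III mRNA is printed from 5′ to 3′, since it is what the members share, with the bases that face the seed in capitals. Those bases were the same in all 5 genes. Each site lay in the coding sequence and spanned an exon junction, with 11 bases in the upstream exon and 10 in the next. The junction joined exons 4 and 5, or exons 5 and 6 in ATHB-8. REV and ATHB-8 held an identical site, and so did PHB and PHV. Set against the perfect complement of miR166, with positions counted from the 5′ end of the site, all 5 sites carried G2U and A21G. At position 1 the REV, ATHB-15 and ATHB-8 sites carried G1C, and the PHB and PHV sites G1U. The REV, PHB, PHV and ATHB-8 sites also carried A5G, a wobble pair with miR166 that is a regular pair with miR165. The ATHB-15 site lacked A5G and carried G5A against the complement of miR165.
REV: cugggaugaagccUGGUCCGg
PHB: uugggaugaagccUGGUCCGg
PHV: uugggaugaagccUGGUCCGg
ATHB-15: cuggaaugaagccUGGUCCGg
ATHB-8: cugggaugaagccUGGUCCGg
On TAIR10.1 these sites span chr5:24398787-24398898 (REV, plus strand), chr2:14642530-14642666 (PHB, minus strand), chr1:10799330-10799445 (PHV, minus strand), chr1:19412976-19413085 (ATHB-15, minus strand) and chr4:15866872-15866974 (ATHB-8, minus strand), introns included.

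The stem-loops of the 3 precursors that gave reads in most libraries are given with the mature 3p strand in capitals. The strand sat near the 3′ end of each stem-loop. The RNAfold minimum free energy was -45.8 kcal/mol for MIR165A (111 nt, chr1:78927-79037, minus strand), -66.9 kcal/mol for MIR166A (170 nt, chr2:19176108-19176277, plus strand) and -51.2 kcal/mol for MIR166B (120 nt, chr3:22922206-22922325, plus strand). The stem-loop of MIR165B (182 nt, chr4:369831-370012, minus strand) had -66.3 kcal/mol.
MIR165A: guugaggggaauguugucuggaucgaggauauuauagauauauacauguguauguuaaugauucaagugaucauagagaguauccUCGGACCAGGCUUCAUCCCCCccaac
MIR166A: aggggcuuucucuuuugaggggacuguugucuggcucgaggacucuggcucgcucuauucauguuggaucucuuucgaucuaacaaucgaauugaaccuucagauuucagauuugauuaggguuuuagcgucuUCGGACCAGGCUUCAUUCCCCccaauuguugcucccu
MIR166B: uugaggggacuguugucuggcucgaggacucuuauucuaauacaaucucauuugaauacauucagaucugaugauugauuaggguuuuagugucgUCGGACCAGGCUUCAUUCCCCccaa

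A library of RNA-seq 2 held 47745772 to 156614246 counts, and one of RNA-seq 1 held 62584871 to 105453682, of which chloroplast genes took 50.6 to 72.2% and 77.6 to 81.5%. In RNA-seq 2, replicate 1 of every genotype and replicate 2 of hen2-2 and WT held 120624180 counts or more. The other libraries held 58077480 or fewer, with a chloroplast share of at most 57.8%, against at least 68.0%. Depth thus differed in part with genotype, and its part in the values was not tested. Levels of RNA-seq 2 are CPM, counts scaled to TMM-normalized library sizes. A count of 3, taken as the floor, corresponded to 0.0192 to 0.0628 CPM in RNA-seq 2. This floor lies under 4, the most frequent count above 0 in all 12 libraries. Values a little above the floor can thus rest on very few reads. The targeted genes followed the labels. HEN2 was at 2.29 to 4.36 CPM in se-2 hen2-2 and 2.30 to 2.94 CPM in hen2-2, against 6.28 to 8.11 CPM in WT, and SE was at 2.61 to 3.26 CPM in se-2 hen2-2 and 2.45 to 3.07 CPM in se-2, against 5.59 to 6.84 CPM in WT. Leaf markers were abundant, and the root markers CASP1 and RHD6 were at 0 in all 12 libraries of RNA-seq 2.

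The precursors were highest in the double mutant. MIR166A, the precursor with the most counts, had 10.53, 7.06 and 11.7 CPM in se-2 hen2-2 and 4.90, 3.85 and 3.58 CPM in se-2. It had 2.02, 0.930 and 0.765 CPM in hen2-2, against 1.87, 1.11 and 1.35 CPM in WT. The double mutant libraries stood above all others and the se-2 libraries came next, while hen2-2 and WT overlapped. MIR166A rose 6.77-fold in se-2 hen2-2 relative to WT (log2 fold change 2.76, SE 0.37, adjusted p = 0.00319, edgeR quasi-likelihood test with Benjamini-Hochberg adjustment over 19454 genes). The call was kept in all 18 other settings. It rose 7.83-fold relative to hen2-2 (log2 2.97, SE 0.37, edgeR adjusted p = 0.00681), a call lost without hen2-2 replicate 2 (log2 2.79, adjusted p = 0.0525) and with the compared genotypes alone (log2 2.96, adjusted p = 0.0590).

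MIR166B had 4.20, 6.91 and 5.56 CPM in se-2 hen2-2 and 1.70, 2.76 and 3.09 CPM in se-2. It had 0.180, 0.312 and 1.78 CPM in hen2-2, against 0.198, 0.303 and 0.423 CPM in WT. Replicate 3 of hen2-2 alone reached the range of se-2, and the other hen2-2 libraries lay below the highest WT library. MIR166B rose 18.2-fold in se-2 hen2-2 relative to WT (log2 4.19, SE 0.74, edgeR adjusted p = 0.0132). The call was lost without WT replicate 1 (adjusted p = 0.0599) and without WT replicate 2 (adjusted p = 0.0749), and the fold changes there were 3.95 and 4.19 on the log2 scale. Relative to hen2-2 the change was 2.95 on the log2 scale (SE 0.69, edgeR adjusted p = 0.103), and without hen2-2 replicate 3 it was 4.46 and passed (adjusted p = 0.00625).

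MIR165A was rare in every genotype. Replicates 1 to 3 gave counts of 53, 28 and 42 for se-2 hen2-2, of 3, 13 and 12 for se-2 and of 3, 7 and 5 for hen2-2, against 1, 3 and 0 for WT, where all 3 libraries were at or under the floor. In CPM the double mutant libraries (0.426 to 0.744) lay above those of se-2 (0.0216 to 0.201), hen2-2 (0.0225 to 0.0956) and WT (0 to 0.0228). Summed over libraries, the ratio of se-2 hen2-2 to WT was 39.7 with a 95% counting interval of 15.1 to 148. The ratio of se-2 hen2-2 to se-2 was 5.18 (3.41 to 8.11). These intervals, here and below, cover counting error only and treat each count as a separate read. The counts derive from coverage, and 4 was the most frequent count above 0 in all 12 libraries. A read pair can thus add several counts, and the intervals are then too narrow. MIR165A passed the filter on low counts only through the mutants where it was high. Its call in se-2 hen2-2 against WT (edgeR adjusted p = 0.0489) was lost in 13 of 18 other settings. It was lost without any 1 of the libraries other than se-2 replicate 1 (adjusted p from 0.0550 without hen2-2 replicate 3 to 0.165 without WT replicate 1), with no filter (0.0609) and with the compared genotypes alone (0.0714). MIR165B had 5 counts in replicate 2 of se-2 hen2-2 and 0 in the other 11 libraries, and was not tested.

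**Figure D1:**
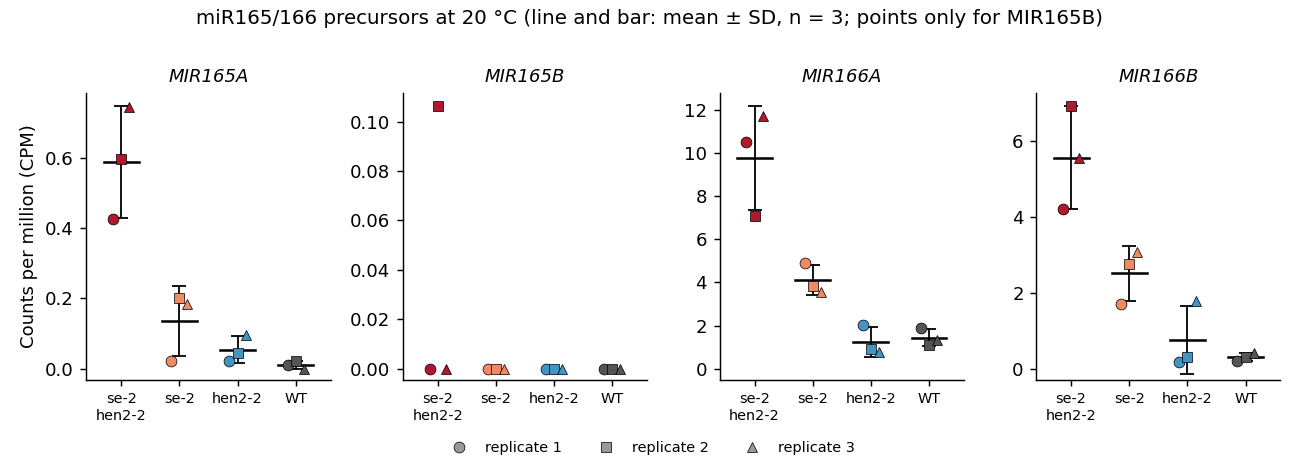
Level of each miR165/miR166 precursor in the 12 libraries of RNA-seq 2, in CPM on the y axis with a scale for each gene, and genotypes on the x axis. Symbols are replicates, and lines with bars are the mean and SD (not drawn for MIR165B). MIR166A lies between 7.06 and 11.7 CPM in se-2 hen2-2 and between 1.11 and 1.87 CPM in WT.

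Of the 9 members 8 passed the filter, MIR165A only through the mutants, and 3 were called in se-2 hen2-2 against WT, each of them a precursor and higher, when 2.38% of all genes tested were called, 1.71% in the higher direction. Against hen2-2, MIR166A was the 1 member called, when 0.529% of all genes were, 0.38% in the higher direction. DESeq2 called MIR165A, MIR166A and MIR166B in both comparisons, when it called 6% of all genes against WT and 2.69% against hen2-2. The libraries of the double mutant did not overlap those of WT for these 3 precursors, which held in the higher direction for 11.2% of all genes.

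The HD-ZIP III mRNAs followed another order of genotypes, highest in se-2. PHB had 1.32, 1.66 and 2.82 CPM in se-2 hen2-2 and 3.16, 4.24 and 4.30 CPM in se-2. It had 1.56, 2.33 and 3.0 CPM in hen2-2, against 1.58, 2.28 and 2.13 CPM in WT. The double mutant and hen2-2 overlapped WT, and every se-2 library lay above every other library. PHB, like PHV, acts in the upper side of the leaf.

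ATHB-15, which acts in the vascular tissue and the meristem, had 3.96, 4.59 and 6.18 CPM in se-2 hen2-2 and 7.40, 8.89 and 8.96 CPM in se-2. It had 2.95, 4.53 and 5.45 CPM in hen2-2, against 2.68, 4.39 and 4.82 CPM in WT. As for PHB, no library of another genotype reached the se-2 libraries. Replicate 1 was the lowest library of both genes in each of the 4 genotypes.

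PHV had 3.58, 2.66 and 2.11 CPM in se-2 hen2-2 and 5.28, 6.95 and 3.27 CPM in se-2. It had 2.05, 1.95 and 0.745 CPM in hen2-2, against 1.47, 2.85 and 1.69 CPM in WT. The se-2 libraries lay above those of WT, but replicate 3 of se-2 was below replicate 1 of the double mutant.

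REV and ATHB-8 varied less between genotypes. REV had 3.96, 4.91 and 6.87 CPM in se-2 hen2-2, 6.95, 5.50 and 6.60 CPM in se-2 and 4.24, 5.99 and 4.38 CPM in hen2-2, against 6.08, 4.49 and 3.86 CPM in WT. ATHB-8, a gene of the procambium, had 3.39, 2.51 and 2.46 CPM in se-2 hen2-2, 3.64, 4.04 and 3.42 CPM in se-2 and 3.21, 2.83 and 2.29 CPM in hen2-2, against 2.68, 2.28 and 3.6 CPM in WT. Both genes overlapped between se-2 and WT.

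**Figure D2:**
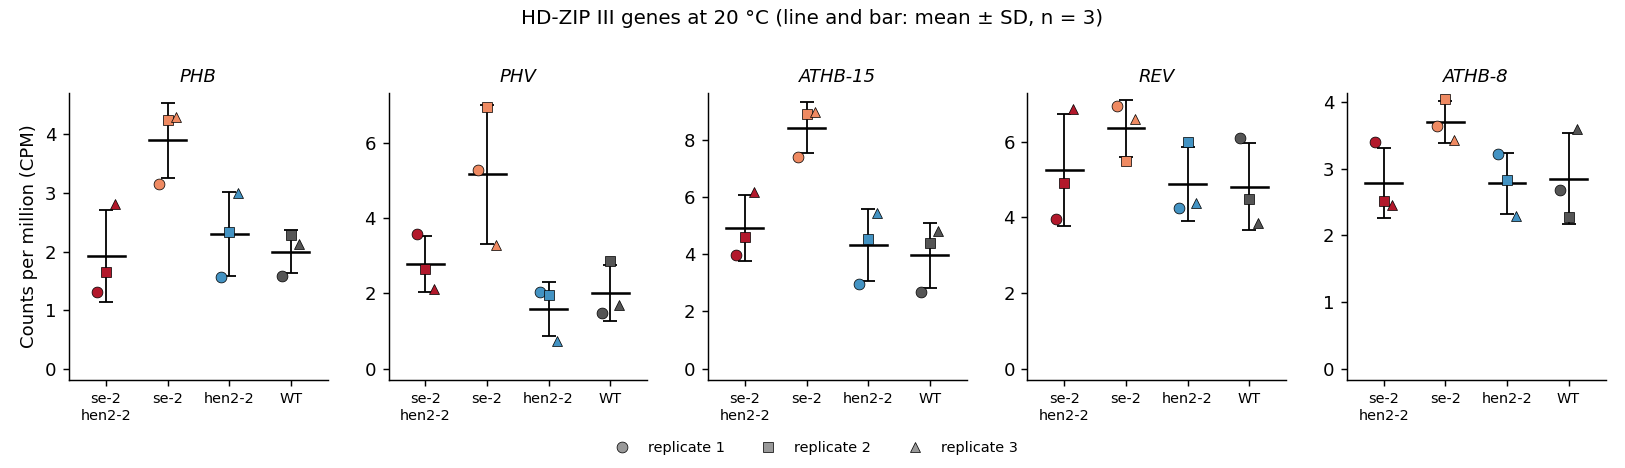
Level of each HD-ZIP III gene in the 12 libraries of RNA-seq 2, in CPM on the y axis with a scale for each gene, and genotypes on the x axis. Symbols are replicates, and lines with bars are the mean and SD. For PHB and ATHB-15 all 3 se-2 libraries, from 3.16 and 7.40 CPM upward, lie above the other 9 libraries.

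In se-2 against WT the fold changes were 1.95 for PHB (log2 0.97, SE 0.32), 2.57 for PHV (log2 1.36, SE 0.41) and 2.12 for ATHB-15 (log2 1.09, SE 0.28). Those of REV (log2 0.40, SE 0.25) and ATHB-8 (log2 0.38, SE 0.23) were smaller. The precursors had log2 fold changes of 1.51 (MIR166A, SE 0.36) and 3.04 (MIR166B, SE 0.71), and the counts of MIR165A gave a ratio of 7.67 (2.68 to 30.1). No member passed the edgeR test in this comparison, with adjusted p from 0.133 for MIR166B to 0.870 for REV, when 0.324% of all genes were called. At an unadjusted p under 0.05 there were 6 of 8 members, when 7.09% of all genes tested had one. MIR165A was 1 of these 6 and had passed the filter on low counts only through the mutants in which it was high, so its part in any count of members is no support. DESeq2 called MIR166A (adjusted p = 0.00814), MIR166B (0.00125) and ATHB-15 (0.0290), when it called 1.73% of all genes. The se-2 libraries stood wholly above those of WT for 5 members, MIR166A, MIR166B, PHB, PHV and ATHB-15, which held for 6.36% of all genes. The median log2 fold change was 0.97 over the 5 HD-ZIP III genes and -0.000478 over all genes tested.

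Xylem markers also had a higher summed level in se-2. The summed level of XCP1, XCP2, CESA4, CESA7 and CESA8, which serve the lignified cells of the xylem, was 12.2 to 15.0 CPM in se-2 hen2-2, 15.5 to 17.9 CPM in se-2 and 11.98 to 13.4 CPM in hen2-2, against 11.8 to 13.7 CPM in WT. None of the 5 was called, and their median log2 fold change in se-2 against WT was 0.41. Their part in the HD-ZIP III values was not tested. The summed cambium markers overlapped, at 1.84 to 3.97 CPM in se-2, against 1.12 to 2.47 CPM in WT.

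In the double mutant relative to WT, the HD-ZIP III genes had log2 fold changes of -0.05 for PHB (SE 0.32), 0.47 for PHV (SE 0.41), 0.31 for ATHB-15 (SE 0.28), 0.12 for REV (SE 0.25) and -0.02 for ATHB-8 (SE 0.23). None was called (edgeR and DESeq2), and none had an unadjusted p under 0.05. All 5 overlapped WT. The leaf markers RBCS1A, CAB1 and PSBO1 summed to 2176 to 2447 CPM in se-2 hen2-2, below the 3052 to 4125 CPM of WT. None of the 3 was called by edgeR without the replicate block, while DESeq2 called CAB1 (log2 -0.74, adjusted p = 0.00642, against 0.0673 with edgeR) and PSBO1 (log2 -0.67, adjusted p = 0.0029, against 0.0564 with edgeR). Between se-2 hen2-2 and se-2, PSBO1 passed with the replicate block (log2 -0.40, SE 0.10, edgeR adjusted p = 0.0413), against 0.372 without it. The part of these markers was not tested.

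The comparison of se-2 hen2-2 with se-2 asked what loss of HEN2 adds in plants that lack normal SE. The differences were positive for the precursors and negative for all 5 HD-ZIP III mRNAs. MIR166A differed by 1.25 on the log2 scale (SE 0.35), MIR166B by 1.15 (SE 0.64), PHB by -1.02 (SE 0.33), ATHB-15 by -0.78 (SE 0.28), PHV by -0.89 (SE 0.41), ATHB-8 by -0.41 (SE 0.23) and REV by -0.28 (SE 0.25). The libraries did not overlap for 3 members in the higher direction (MIR165A, MIR166A, MIR166B) and 3 in the lower (PHB, ATHB-15, ATHB-8), beside 8.55% and 7.27% of all genes. MIR165A passed the filter on low counts only through the mutants in which it was high, so its part in this count is no support. No member passed the edgeR test (adjusted p from 0.163 to 0.778, when 0.884% of all genes were called), and 3 had an unadjusted p under 0.05, as had 10.9% of all genes. DESeq2 called MIR166A alone (adjusted p = 0.0355), when it called 2.97% of all genes.

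Same-numbered libraries of se-2 hen2-2 and se-2 deviated together, most in replicate 1 (correlations of 0.532, 0.127 and 0.209 in replicates 1 to 3). The replicate number was therefore also used as a block. The block was fitted over all 12 libraries, so the same number effects were applied to hen2-2 and WT. It was not a paired fit of these genotypes alone. In that fit MIR166A rose (log2 1.25, SE 0.25, edgeR adjusted p = 0.0153) and PHB (log2 -1.06, SE 0.22, adjusted p = 0.0209) and ATHB-15 (log2 -0.80, SE 0.17, adjusted p = 0.0202) fell. The 3 members were among 3.73% of all genes called with the block. Within numbers, PHB was lower in the double mutant by -1.26, -1.35 and -0.61 on the log2 scale, and ATHB-15 by -0.90, -0.95 and -0.54. PHV was lower in 3 of 3 pairs too, by -0.56, -1.39 and -0.63, but did not pass (blocked adjusted p = 0.148). MIR166A was higher in 3 of 3 pairs, by 1.10, 0.87 and 1.71.

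**Figure D3:**
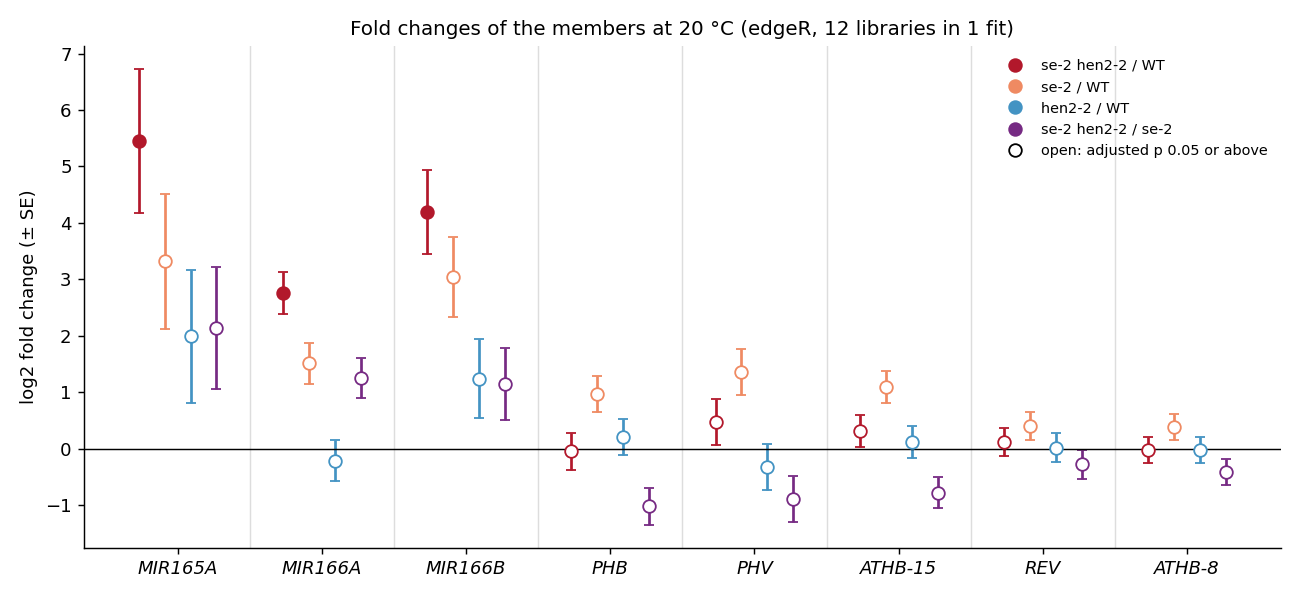
Log2 fold changes of the 8 members tested in RNA-seq 2, with SE as bars, for 4 comparisons of genotypes. Filled points had an edgeR adjusted p under 0.05 and open points did not. In se-2 hen2-2 relative to WT, MIR166A is at 2.76 and MIR166B at 4.19, both filled, and PHB is at -0.05, open.

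No member passed the test in hen2-2 single mutants. At 20 °C the HD-ZIP III genes had log2 fold changes in hen2-2 against WT from -0.33 (PHV, SE 0.41) to 0.20 (PHB, SE 0.32), and MIR166A was at -0.21 (SE 0.36). MIR166B was at 1.24 (SE 0.70), a value set by replicate 3 of hen2-2, without which it was -0.29. MIR165A gave 15 counts in hen2-2 and 4 in WT, a ratio of 3.25 (1.04 to 13.5). No member was called by edgeR or DESeq2, none had an unadjusted p under 0.05, and 0.308% of all genes were called by edgeR.

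The interaction asked whether the effect of hen2-2 differed between se-2 and WT plants. It was 1.46 on the log2 scale for MIR166A (SE 0.50, edgeR adjusted p = 0.666), -1.22 for PHB (SE 0.46, adjusted p = 0.767) and -0.90 for ATHB-15 (SE 0.39, adjusted p = 0.862). No member passed, when 0.0154% of all genes did. These 3 members had an unadjusted p under 0.05, as had 5.6% of all genes, and DESeq2 called no member. MIR166B (-0.09, SE 0.91), PHV (-0.56, SE 0.58), REV (-0.30, SE 0.35) and ATHB-8 (-0.38, SE 0.33) had larger p.

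RNA-seq 1 gave levels corrected for transcript length and library size, as TPM. These were not TMM-normalized. The median log2 fold change of all genes in hen2-2 against WT was -0.191 on log2(TPM + 0.1), against 0.0225 on counts. REV, PHB, MIR166A and ATHB-8 had lower mean TPM in hen2-2. On counts their log2 fold changes were 0.10, 0.12, 0.13 and 0.22, and none was called. In hen2-2 at 22 °C the means were 0.788 ± 0.00686 TPM for ATHB-15, 0.679 ± 0.117 for REV, 0.482 ± 0.0972 for PHV, 0.423 ± 0.0673 for MIR166A, 0.421 ± 0.0321 for ATHB-8, 0.361 ± 0.160 for MIR165A, 0.346 ± 0.0620 for PHB and 0.142 ± 0.0115 for MIR166B (SD, n = 3 for all). In WT the order was ATHB-15 (0.984 ± 0.108 TPM, SD, n = 3), REV (0.752 ± 0.200), PHV (0.712 ± 0.159), MIR166A (0.451 ± 0.0963), ATHB-8 (0.427 ± 0.0499), PHB (0.367 ± 0.0962), MIR165A (0.238 ± 0.0721) and MIR166B (0.105 ± 0.0515). WT libraries of neighbours in that order overlapped, except between PHV and MIR166A and between MIR165A and MIR166B. MIR165B was listed at 0 in all 6 libraries. MIR165A rested on 10, 4 and 13 estimated reads in hen2-2, against 4, 2 and 4 in WT, and was not tested. The reads of the precursors lay almost wholly on the entries for the long pri-miRNAs, of 319 nt for MIR165A, 1113 nt for MIR166A and 1187 nt for MIR166B. The short pre-miRNA entries were at 0, except for 0.00291 to 0.0380 TPM for MIR166A in hen2-2. The paper describes a mix of precursors, introns and maturation by-products at miRNA genes in hen2-2. Values per entry, like the counts per gene, do not tell unprocessed pri-miRNAs from such by-products.

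On counts, PHV at 22 °C had 3.50, 2.91 and 2.80 CPM in hen2-2, against 4.09, 3.80 and 3.59 CPM in WT, without overlap (log2 -0.32, SE 0.14, edgeR adjusted p = 0.401). ATHB-8 had 2.64, 2.63 and 3.10 CPM in hen2-2, against 2.31, 2.30 and 2.56 CPM in WT (log2 0.22, SE 0.13, adjusted p = 0.555). MIR166B had 0.308, 0.296 and 0.313 CPM in hen2-2, against 0.193, 0.257 and 0.0898 CPM in WT (log2 0.76, SE 0.38, adjusted p = 0.472). These 3 did not overlap, 2 higher and 1 lower, beside 11.2% and 8.64% of all genes. None of the 7 members tested was called by edgeR, which called 1.35% of all genes, or by DESeq2, and none had an unadjusted p under 0.05.

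Among single transcript entries, 9 of 14 passed the filter and none was called by edgeR (0 with an unadjusted p under 0.05, 0.226% of all entries called). ATHB-15 had 3 entries, of which the first took most of its level, 0.600 to 0.651 TPM in hen2-2 and 0.633 to 0.820 TPM in WT. Its log2 fold change was -0.04 (SE 0.13).

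**Figure D4:**
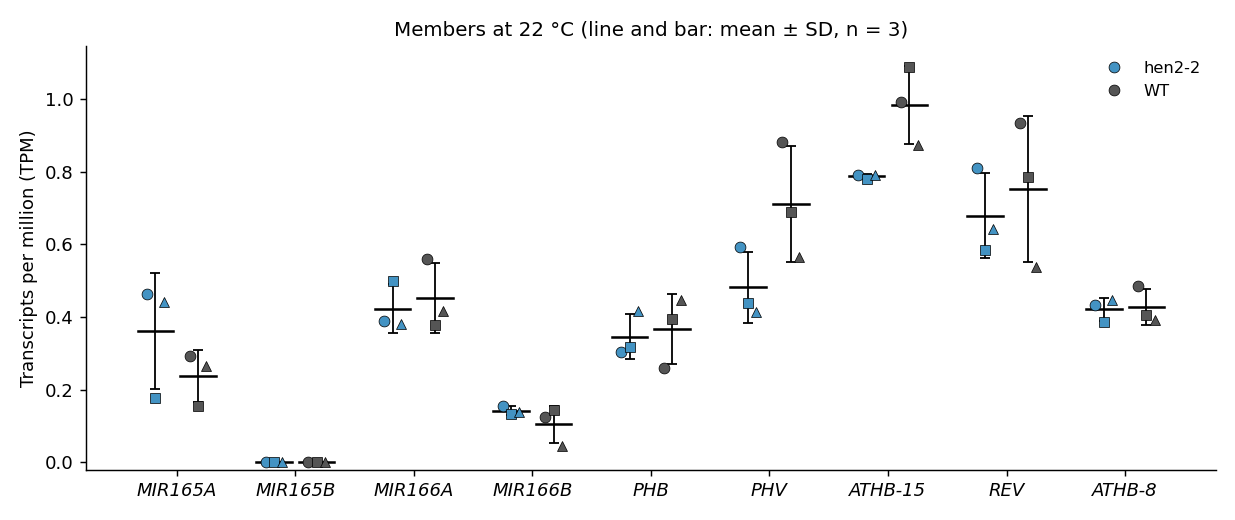
Level of the 9 members in RNA-seq 1, in TPM on the y axis, in hen2-2 (blue) and WT (grey). Symbols are replicates as circle, square and triangle for 1, 2 and 3, and lines with bars are the mean and SD. ATHB-15 has the highest mean, 0.788 TPM in hen2-2 and 0.984 TPM in WT, and MIR165B is at 0. TPM is not TMM-normalized, and the genotypes were tested on counts.

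Other genes of the pathway were read as lists around the members, 55 genes in all, of which 46 passed the filter in RNA-seq 2. Among the other miR166 precursors, MIR166E had 0.563, 0.404 and 0.673 CPM in se-2 hen2-2, 0.152, 0.201 and 0.306 CPM in se-2 and 0.0225, 0.0520 and 0.134 CPM in hen2-2, against 0, 0.0228 and 0.0326 CPM in WT. By mean level it was highest in se-2 hen2-2 and next in se-2, as were MIR165A, MIR166A and MIR166B. Its counts gave a ratio of 32.8 (13.7 to 103) in se-2 hen2-2 against WT, which edgeR did not call (adjusted p = 0.0605) and DESeq2 did (adjusted p = 3.04e-05). DESeq2 also called it between se-2 and WT (adjusted p = 0.0189), and between the double mutant and hen2-2 (adjusted p = 0.0076). Like MIR165A, it passed the filter only through the mutants. MIR166C was tested too and did not follow this order. It had 0 to 0.0161 CPM in se-2 hen2-2, 0 to 0.217 CPM in se-2 and 0 to 0.115 CPM in hen2-2, against 0 to 0.147 CPM in WT. Its log2 fold change in se-2 hen2-2 against WT was -2.48 (SE 2.57). MIR166D, MIR166F and MIR166G were at 0 throughout RNA-seq 2.

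AGO1, the Argonaute that most miRNAs load into, was called among the miR165/miR166 effectors. It had 30.1, 30.3 and 39.7 CPM in se-2 hen2-2 and 48.6, 41.0 and 49.2 CPM in se-2, against 22.0, 26.0 and 21.6 CPM in WT. The libraries of both mutants lay above those of WT. AGO1 rose 2.00-fold in se-2 (log2 1.0, SE 0.17, edgeR adjusted p = 0.0379), while the value in se-2 hen2-2 was 0.52 on the log2 scale (SE 0.17, adjusted p = 0.167). The call in se-2 was lost in 10 of 18 other settings, among them each se-2 and each WT library left out (adjusted p from 0.0860 without se-2 replicate 2 to 0.171 without WT replicate 1), at log2 fold changes of 0.95 to 1.09. AGO10, which binds miR165/miR166 and keeps them from AGO1, had 5.90, 5.34 and 8.77 CPM in se-2, against 4.73, 5.67 and 6.12 CPM in WT, and was not called.

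Of the 10 abaxial genes, which specify the lower side of the leaf, 9 were tested and only ARF4 was called by edgeR. ARF4, an auxin response factor, had 8.43, 8.02 and 7.05 CPM in se-2 hen2-2 and 11.2, 10.3 and 9.42 CPM in se-2, against 4.18, 5.01 and 5.03 CPM in WT. It rose in se-2 (log2 1.12, SE 0.16, adjusted p = 0.0151) and in se-2 hen2-2 relative to WT (log2 0.73, SE 0.16, adjusted p = 0.0412) and to hen2-2 (log2 0.90, SE 0.16, adjusted p = 0.0378). These 3 calls were lost in 6, 13 and 12 of 18 other settings, with adjusted p of up to 0.0993, 0.153 and 0.204, while the log2 fold changes stayed at 1.04 to 1.19, 0.64 to 0.77 and 0.80 to 0.94 with any library left out. Among the libraries whose loss ended the call in se-2 were se-2 replicates 1 (0.0533) and 2 (0.0648) and WT replicates 1 (0.0840), 2 (0.0732) and 3 (0.0645). The adaxial genes AS1 and AS2 were not called in any comparison. At 22 °C, YAB5, a YABBY factor of the abaxial list, had 3.18, 3.06 and 2.53 CPM in hen2-2, against 1.90, 1.74 and 1.42 CPM in WT. It did not pass edgeR without the replicate block (log2 0.79, SE 0.17, adjusted p = 0.0872), and passed with it (SE 0.11, adjusted p = 0.0071) and with DESeq2 (adjusted p = 0.0194). The block and DESeq2 called 12.3% and 4.25% of all genes in this comparison.

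Partners and targets of HD-ZIP III proteins did not pass: of 11 genes, 10 were tested and none was called by edgeR in any comparison of RNA-seq 2. ZPR1, a small leucine zipper protein that binds HD-ZIP III proteins, had 0.667, 0.659 and 1.06 CPM in se-2 hen2-2 and 1.34, 1.52 and 1.06 CPM in se-2, against 0.506, 0.804 and 0.895 CPM in WT. The se-2 libraries lay above those of WT (log2 0.83, SE 0.38, edgeR adjusted p = 0.703). Of the 10 genes tested, 7 had a positive and 3 a negative log2 fold change in se-2 against WT. ZPR1 was the 1 gene wholly above WT and ATHB2 the 1 wholly below, beside 6.36% and 6.5% of all genes. ATHB2, a shade-responsive HD-ZIP II factor, had 2.73, 5.30 and 6.43 CPM in se-2 hen2-2 and 1.88, 2.52 and 1.79 CPM in se-2, against 2.68, 3.25 and 3.53 CPM in WT. In se-2 against WT it was at log2 -0.61 (SE 0.33, edgeR adjusted p = 0.7965). Its libraries did not overlap between se-2 hen2-2 and se-2. That difference did not pass edgeR without the replicate block (log2 1.22, SE 0.33, adjusted p = 0.146). It passed with the block (log2 1.14, SE 0.24, adjusted p = 0.0235) and with DESeq2 (adjusted p = 0.0311).

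Among markers of other cell types, the phloem protein gene PP2-A1 was the 1 gene called by edgeR in RNA-seq 2 without the replicate block. It had 3.85, 3.42 and 5.68 CPM in se-2 hen2-2 and 2.09, 3.33 and 2.51 CPM in se-2, against 21.1, 18.5 and 22.8 CPM in WT. It fell by 2.98 on the log2 scale in se-2 (SE 0.24, edgeR adjusted p = 0.000694) and by 2.27 in se-2 hen2-2 (SE 0.23, adjusted p = 0.000526), and both calls were kept in all 18 other settings. The other 3 phloem genes, SUC2, APL and SEOR1, were not called by edgeR without the block. DESeq2 called SEOR1 in se-2 hen2-2 against WT (adjusted p = 0.0205, against 0.0935 with edgeR) and against hen2-2 (adjusted p = 0.0311), and called SUC2 and APL in no comparison. It called the leaf markers CAB1 (adjusted p = 0.0435) and PSBO1 (adjusted p = 0.0195) between the double mutant and hen2-2 as well. At 22 °C KNOLLE, a cytokinesis syntaxin, passed in hen2-2 against WT with the replicate block (log2 0.50, SE 0.13, edgeR adjusted p = 0.0489), against 0.293 without it. With the block 12.3% of all genes were called at 22 °C, and 2 of the 42 listed genes tested.

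To see which genes had a pattern like each member's, the log2 CPM of each of the 19454 genes was centred on its mean over the 12 libraries of RNA-seq 2, and genes were ranked by the root mean square difference from the member. These are descriptions over libraries that share genotype and replicate. PHB and ATHB-15 lay close together, at a difference of 0.230: ATHB-15 ranked 4 of 19453 for PHB, and PHB ranked 3 for ATHB-15. Nearest to PHB were AT2G27385 (0.211) and LACS1 (0.223), a long-chain acyl-CoA synthetase gene of cuticle formation. LACS1 (0.210) and ARF6 (0.216), an auxin response factor and target of miR167, were nearest to ATHB-15. For PHV they were AT4G31360 (0.380) and AT2G25220 (0.406).

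Precursors were nearest to other precursors in part. MIR403 (0.510) and MIR166E (0.520) lay closest to MIR166B, and AT1G61930 (0.601) and MIR398b (0.612) to MIR165A. Nearest to MIR166A were AT5G05960 (0.403) and AT5G10946 (0.486). REV (FtsHi1 at 0.177, AT5G16720 at 0.183) and ATHB-8 (AT2G45250 at 0.134, AT3G04470 at 0.142) deviated from their own mean by 0.301 and 0.272.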

How the data were processed

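RNA-seq 2 counts per gene were deposited by the authors, who removed the first 12 nt of the reads, cleaned them with Trimmomatic, removed ribosomal RNA with Bowtie, aligned with HISAT2 to TAIR10 and counted with StringTie and its helper script, with pri-miRNA coordinates added. That script derives counts from coverage: 4 was the most frequent count above 0 in all 12 libraries. For RNA-seq 1 the authors deposited estimated counts and TPM per transcript entry (Salmon in the processing notes). Versions and the use of strand in counting are not given in the sources used here. Entries were summed per gene and rounded, and 2 spike entries were left out. The 12 small RNA libraries were not analysed here.

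Counts were tested with edgeR 4.0.16 in R 4.3.3 (TMM, filterByExpr, quasi-likelihood, two-sided, Benjamini-Hochberg adjustment, adjusted p under 0.05). The 12 libraries of RNA-seq 2 shared 1 fit. Alternatives were DESeq2 1.42.0, RLE size factors, no filter, nuclear genes only, the compared genotypes alone, a replicate block, each library left out, and for RNA-seq 1 limma 3.58.1 on log2(TPM + 1) and log2(TPM + 0.1). The script was tested on simulated data. The study's methods call the libraries biological replicates. Deviations of same-numbered libraries correlated at 0.349 to 0.688 for hen2-2 and WT at 22 °C, 0.279 to 0.497 for hen2-2 and WT at 20 °C and 0.127 to 0.532 for se-2 hen2-2 and se-2, and these were treated as paired. Between se-2 hen2-2 and se-2, unlike-numbered libraries correlated at -0.322 to 0.121. The highest, of numbers 2 and 3, was close to the 0.127 of the replicate 2 pair. In the other comparisons 1 pair was below 0.1.

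Genes named were all 9 members, HEN2 and SE, the genes of each list called in a comparison (at most 6 by p) and 2 nearest genes per member. Other genes named, such as MIR166E, AGO10, ZPR1, ATHB2 and the markers, were added after their values were seen. Members and lists were chosen with earlier results of these data known. Sequences came from the RefSeq TAIR10.1 genome, with folding by RNAfold 2.7.2. The authors' gene models are on TAIR10, and their counts were joined by identifier.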

Additional observations from a re-analysis of the deposited data

Results flagged for a closer look

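PHB was lower in se-2 hen2-2 than in hen2-2 in 3 of 3 same-numbered pairs, by -0.25, -0.49 and -0.09 on the log2 scale, and higher in se-2 than in WT in 3 of 3 pairs, by 1.0, 0.90 and 1.01. In these comparisons the libraries shared only a number, not a pairing, so the pairs are a description. Over all libraries PHB in se-2 hen2-2 against hen2-2 had a log2 fold change of -0.25 (SE 0.32, edgeR adjusted p = 0.883), which did not pass. The interaction was -1.22 (SE 0.46, edgeR adjusted p = 0.767), which did not pass after adjustment.

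ATHB-15 was lower in se-2 hen2-2 than in se-2 in 3 of 3 same-numbered pairs, by -0.90, -0.95 and -0.54 on the log2 scale, and higher in hen2-2 than in WT in 3 of 3 pairs, by 0.14, 0.04 and 0.18. Over all libraries ATHB-15 in hen2-2 against WT had a log2 fold change of 0.12 (SE 0.28, edgeR adjusted p = 1), which was -0.076 without hen2-2 replicate 3 and -0.0983 without WT replicate 1. The interaction was -0.90 (SE 0.39, edgeR adjusted p = 0.862), which did not pass after adjustment.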

How the results depend on the processing

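Of 1022 fold changes of members under other settings, 924 kept their direction and their side of the threshold, 17 lost a call, 18 gained one and 63 changed sign, none of them a call in either fit. Leaving out a library gave 50 of the changes of sign, and the ranges of log2 fold changes over libraries left out follow. For hen2-2 against WT at 22 °C they were -0.0668 to 0.24 (MIR166A), -0.0293 to 0.16 (REV), -0.16 to 0.39 (PHB). For hen2-2 against WT at 20 °C they were -0.76 to 0.0317 (MIR166A), -0.29 to 1.73 (MIR166B), -0.16 to 0.22 (REV), -0.0287 to 0.41 (PHB), -0.55 to 0.0151 (PHV), -0.0983 to 0.33 (ATHB-15), -0.17 to 0.17 (ATHB-8). For se-2 hen2-2 against WT they were -0.15 to 0.33 (REV), -0.45 to 0.17 (PHB), -0.19 to 0.15 (ATHB-8). For se-2 hen2-2 against hen2-2 they were -0.17 to 0.28 (REV), -0.035 to 0.36 (ATHB-15), -0.16 to 0.12 (ATHB-8). For the interaction they were -0.79 to 0.71 (MIR165A), -0.58 to 1.42 (MIR166B). For single transcript entries at 22 °C they were -0.10 to 0.0294 (AT1G52150.1), -1.07 to 1.10 (AT1G52150.2), -0.57 to 0.17 (AT1G52150.3), -0.17 to 0.38 (AT2G34710.1), -0.0689 to 0.24 (AT2G46685 pri-miRNA entry), -0.0354 to 0.16 (AT5G60690.1).

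The other 13 changes of sign were small. For ATHB-8 in se-2 hen2-2 against hen2-2 the value was -0.000199 with nuclear genes only, -0.000207 with the replicate block and -0.00369 with the compared genotypes alone. With the replicate block the interaction of MIR166B was 0.30 and the fold change of the entry AT1G52150.2 was 0.28. At 22 °C, limma on log2(TPM + 1) gave -0.0276 for MIR166A, -0.058 for REV, -0.0206 for PHB and -0.00518 for ATHB-8, and on log2(TPM + 0.1) -0.0701, -0.113, -0.0523 and -0.0127, where the median of all genes was -0.0877 and -0.191.

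The count of members called in se-2 against WT was 3 with DESeq2, 5 with the replicate block and 0 to 1 with a library left out, against 0. In se-2 hen2-2 against WT it was 1 to 3 with a library left out, against 3. Between se-2 hen2-2 and se-2 it was 1 with DESeq2 and 3 with the block, against 0. In se-2 hen2-2 against hen2-2 it was 3 with DESeq2, 2 with the block, 0 with the compared genotypes alone and 0 to 2 with a library left out, against 1. Over all genes the block moved the share called from 0.324% to 2.04%, 2.38% to 8.04%, 0.884% to 3.73% and 0.529% to 3.69% in these 4 comparisons, and from 1.35% to 12.3% at 22 °C. In se-2 against WT, se-2 hen2-2 against WT and se-2 hen2-2 against hen2-2 libraries shared a number but not a pairing. In the interaction the blocked adjusted p was 0.0982 for MIR166A, 0.12 for PHB and 0.123 for ATHB-15.

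Of the listed genes around the members, at 22 °C 1 was called with DESeq2 and 2 with the block, against 0. In se-2 against WT 4 were called with DESeq2, 1 with the compared genotypes alone and 1 to 3 with a library left out, against 3. In se-2 hen2-2 against WT it was 6 with DESeq2, 6 with the block, 1 with no filter, 1 with the compared genotypes alone and 1 to 2 with a library left out, against 2. Between se-2 hen2-2 and se-2 it was 1 with DESeq2, 2 with the block and 0 to 1 with a library left out, against 0. In se-2 hen2-2 against hen2-2 it was 7 with DESeq2, 4 with the block, 1 with the compared genotypes alone and 1 to 2 with a library left out, against 2. Depth limits MIR165A, MIR165B and MIR166E, which lay near the floor of 3 counts in WT.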

Other observations

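AT3G61898, annotated 225 bases from the MIR166B stem-loop on the same strand, had 0.106 to 0.555 CPM in se-2 hen2-2 and 0 to 0.0764 CPM in se-2. It was at 0 in every library of hen2-2 and of WT. AT5G60700, which overlaps REV on the opposite strand, had 1.83 to 3.68 CPM in se-2 hen2-2, 2.25 to 3.31 CPM in se-2 and 2.20 to 2.62 CPM in hen2-2, against 1.95 to 2.81 CPM in WT. Whether its reads and those of REV were kept apart in counting is not given in the sources used here. MIR165A overlaps AT1G08765 on the opposite strand, which was not analysed here.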
